A study of Mus musculus with 10 samples.

Results

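The genes described here are the 6 GATA transcription factors, Gata1 to Gata6, and their FOG cofactors Zfpm1 and Zfpm2. They were taken by symbol from the array's annotation, and each of the 8 had 1 probe set among 24704 named genes. Gene expression had been measured on 10 Affymetrix arrays in primary murine LSEC, which are liver sinusoidal endothelial cells, the sieve-like lining of the liver's capillaries. Female C57BL/6N mice aged 10 weeks at the start were fed either a CDAA diet, with 31% of calories as fat and 1% cholesterol, or Std, the control diet, and feeding lasted 10 weeks. CDAA commonly denotes a choline-deficient diet defined in its amino acids that brings about fatty liver and fibrosis. There were 5 arrays for CDAA and 5 for Std, each with cells pooled from 3 mice and bound to CD146 beads. The label field for duration reads 10 days, while the descriptions and the growth protocol give weeks. The series' design text speaks of Gata4 knockout animals, but every array analysed here is labelled by diet alone.

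GATA factors carry a pair of zinc fingers and bind DNA at the letters GATA. GATA1, GATA2 and GATA3 are best known from blood cells, and GATA4, GATA5 and GATA6 from heart, gut and other organs that arise from mesoderm and endoderm. FOG proteins ("friend of GATA", FOG1 from Zfpm1 and FOG2 from Zfpm2) do not bind these DNA sites themselves. They attach to a zinc finger of a GATA factor and bring corepressors, among them CtBP proteins and the NuRD histone deacetylase complex. In mouse liver endothelium GATA4 directs the sinusoidal program, and its loss in these cells has been described to turn sinusoids into continuous capillaries.

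Across the family, Gata6 rose with CDAA, Gata2 and Zfpm1 fell, and 5 members did not pass. A gene is said to have risen or fallen where its CDAA minus Std difference in log2 signal passed limma's test at a Benjamini-Hochberg adjusted p below 0.05 over all 24704 genes. Over all genes 7.49% rose and 9.13% fell, 16.6% in all. Among genes whose mean lay above the array median in at least 1 diet, 13.2% rose and 16.8% fell, 30.0% in all. With 3 of 8 members called, the family is too small to be set apart from that background. For 4 members, 3 lower and 1 higher with CDAA, no CDAA array overlapped a Std array, against 13.9% of all genes, of which 7.73% were lower and 6.16% higher. All 4 lay above the array median, and this share was not computed for such genes alone. The array median was 3.89 on the log2 scale. Gata2, Gata4, Gata6, Zfpm1 and Zfpm2 lay above it on all 10 arrays, whereas Gata1 and Gata3 lay below it on all 10 and Gata5 on 9. Whether a signal below the median exceeds background is not known here.

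**Figure D1:**
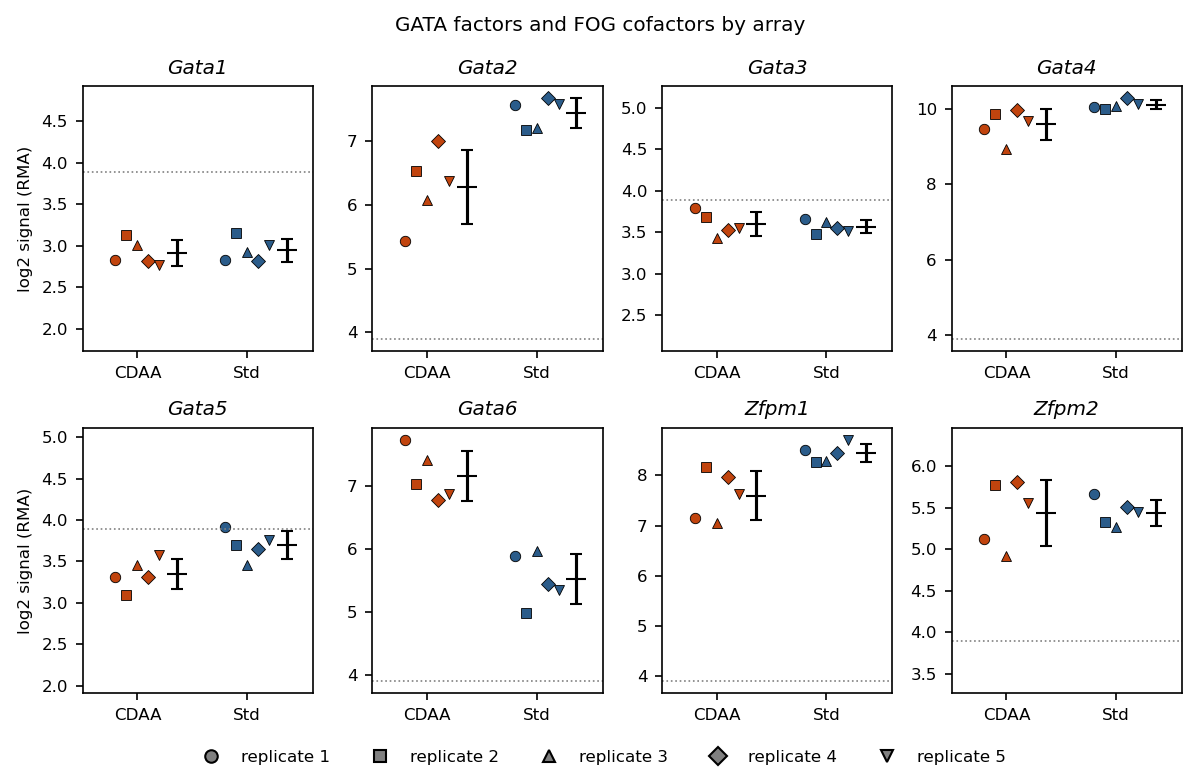
Log2 signal (y axis, own range per panel, at least 3.2 units) of each member on the 5 CDAA arrays (left) and the 5 Std arrays (right). Symbols mark the replicate number, the black bar is the mean with its SD, and the dotted line is the array median of 3.89. Gata6 in CDAA lies above all Std arrays, and Gata2, Gata4 and Zfpm1 lie below all Std arrays.

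CDAA 1 and CDAA 3 held the lowest CDAA values of Gata2, Gata4, Zfpm1 and Zfpm2 and the highest of Gata6. The mean of 12 pan-endothelial genes was 10.54 in CDAA 1 and 10.18 in CDAA 3, against 10.90 to 11.25 on the other 3 CDAA arrays and 11.50 to 11.63 on the Std arrays. All 12 lay above the array median, and 9 of them fell, with a median difference of -0.76. In an isolate measured in bulk, fewer cells of a type and less RNA per cell cannot be told apart. LSEC markers were bright: the mean of 18 such genes, all above the array median, was 9.89 to 10.87 in CDAA and 11.37 to 11.48 in Std. Member calls are also given without CDAA 1 and CDAA 3, where 10.6% of all genes were called, and the calls of named list genes that were lost there are stated. The mean of 8 neutrophil genes was 4.60 to 5.37 on the CDAA arrays, against 3.56 to 3.82 on 4 Std arrays and 8.58 on Std 3, which stood apart. Without Std 3 the 3 member calls held (Gata6 1.755, Gata2 -1.22 and Zfpm1 -0.89), and Gata5 passed as well.

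Gata4, the sinusoidal regulator, separated the diets by the smallest gap among the 4 members without overlap. Its log2 signal was 9.45, 9.87, 8.94, 9.97 and 9.68 on CDAA 1 to 5, against 10.05, 9.98, 10.08, 10.28 and 10.13 on Std 1 to 5. All 5 CDAA arrays were lower than any Std array, but CDAA 4 and Std 2 were only 0.0078 apart. The difference was -0.52 ± 0.17 (SE), and it did not pass (limma adjusted p = 0.0556). Values spread 3.68 times as widely with CDAA (SD 0.41, n = 5) as with Std (SD 0.11, n = 5). CDAA 3 and CDAA 1 were the lowest, and without them the difference was -0.27 (limma adjusted p = 0.161).

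Gata6, a relative of Gata4 that acts in heart, in gut and other epithelia and, in mice, in resident peritoneal macrophages, had the widest change. Its log2 signal was 7.74, 7.04, 7.41, 6.78 and 6.88 on CDAA 1 to 5, against 5.88, 4.98, 5.96, 5.44 and 5.35 on Std 1 to 5. The lowest CDAA array lay 0.81 above the highest Std array. Gata6 rose by 1.64 ± 0.22 (SE, limma adjusted p = 0.000492), a 3.13-fold higher signal, the 257th largest rise of 24704 genes. The spread was alike in both diets (SD 0.40 with CDAA and 0.41 with Std, n = 5 each). Without CDAA 1 and CDAA 3 it still rose, by 1.37 (limma adjusted p = 0.00264).

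Markers of some other cell types also rose with CDAA. In a cholangiocyte list of 9 measured genes, all above the array median, 9 rose with and without CDAA 1 and CDAA 3, led by Tspan8 (4.03), a tetraspanin of epithelia, and the keratins Krt18 (3.64) and Krt8 (3.48). The list mean was 8.45, 7.96, 8.27, 7.57 and 7.93 on CDAA 1 to 5, against 5.66, 4.72, 5.47, 4.88 and 4.50 on Std 1 to 5. The CDAA arrays thus had the same order for this list as for Gata6, from CDAA 1 at the top to CDAA 4, and in Std both were highest in Std 1 and Std 3. Of 14 stellate cell genes, 7 rose, among them the collagens Col1a1 (3.43) and Col3a1 (2.59) and the proteoglycan Lum (2.50), and the list mean was 6.00 to 7.28 in CDAA and 5.22 to 5.79 in Std. Hhip, a hedgehog-binding protein named after its value was seen, fell by 0.73 in that list. There were 7 rises and no fall in it without CDAA 1 and CDAA 3, and leaving out any of 5 single arrays also ended the fall of Hhip. Of 9 markers of recruited macrophages, 8 rose with and without these arrays, with Gpnmb (7.31), Mmp12 (6.80) and Itgax (4.03) in the lead, and the list mean was 8.33 to 9.79 in CDAA and 5.22 to 6.26 in Std. Unlike Gata6, the stellate and recruited macrophage lists were highest in CDAA 3 (7.28 and 9.79) rather than CDAA 1. The stellate list mean was lowest of the Std arrays in Std 3 (5.22), where Gata6 was highest. The part of these cell types in the rise of Gata6 was not tested.

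Genes typical of the peritoneal macrophages that depend on Gata6 in mice, and of mesothelium, were also measured. Of 10 measured genes of the peritoneal macrophage list, 2 rose: the coagulation factor F10 by 1.05 and the growth factor Tgfb2 by 0.59, neither confined to these cells. Selp, the adhesion molecule P-selectin, was at 0.80 (limma adjusted p = 0.0501), and it rose by 1.01 without CDAA 1 and CDAA 3 (limma adjusted p = 0.0304), where F10 and Tgfb2 rose as well. Prg4, which encodes lubricin and is a hallmark of the cells, was below the array median in both diets (3.31 with CDAA and 3.26 with Std). The list median was -0.04 and the list mean was 5.24 to 5.44 in CDAA and 5.07 to 5.46 in Std. None of 6 mesothelial genes passed, at a list mean of 4.63 to 5.13 in CDAA and 4.75 to 5.21 in Std, and the lowest p was that of the membrane glycoprotein Gpm6a (0.26, limma adjusted p = 0.262). The mesothelial markers Msln and Lrrn4 lay below the array median in both diets.

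Gata5, the third member of the Gata4 subfamily, known from gut and heart, was dim. Its log2 signal was 3.31, 3.10, 3.46, 3.31 and 3.58 on CDAA 1 to 5, against 3.92, 3.70, 3.45, 3.65 and 3.76 on Std 1 to 5. The diets overlapped, because Std 3 lay below CDAA 3 and CDAA 5. The difference of -0.35 ± 0.12 (SE) did not pass (limma adjusted p = 0.0618). Leaving out Std 3 brought it past the threshold (-0.41, limma adjusted p = 0.0361), as did leaving out CDAA 5 (-0.40).

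Gata2, which in blood acts in stem cells and mast cells and in vessels supports endothelial genes, fell most. Its log2 signal was 5.44, 6.54, 6.08, 6.99 and 6.37 on CDAA 1 to 5, against 7.57, 7.18, 7.21, 7.67 and 7.58 on Std 1 to 5. The highest CDAA array lay 0.18 below the lowest Std array, and CDAA 1 was lowest. Gata2 fell by 1.16 ± 0.24 (SE, limma adjusted p = 0.00604), the 151st largest fall of all genes and 2.23-fold in signal. It also fell without CDAA 1 and CDAA 3, by 0.81 (limma adjusted p = 0.0139). Kit, a stem cell factor receptor of mast cells and of pericentral liver endothelium, fell by 0.96 ± 0.21, and the eosinophil receptor Ccr3 by 0.44, below the array median in both diets. These were the 2 falls among 9 mast cell, basophil and eosinophil genes, of which 7 were below the array median in both diets, and only Kit fell without CDAA 1 and CDAA 3 or without Std 3 (Ccr3 -0.42 and -0.34). The mean of that list was 3.93 to 4.17 in CDAA and 4.12 to 4.53 in Std, with Std 3 at the top.

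Promoter sequences were held by RefSeq (GRCm38.p6) for 5 members, Gata1, Gata2, Gata3, Gata5 and Zfpm1, and Gata2 had 2 start sites. Its 250 bases before each start are shown because Gata2 and Zfpm1 fell together and GATA factors are known to act on genes of their own family. Capitals mark GGGCGG, the GC box that Sp1-type factors bind, or its complement CCGCCC. The first lies at chr6:88193641-88193890 and the second at chr6:88198414-88198663, both on the plus strand.
Gata2, first start: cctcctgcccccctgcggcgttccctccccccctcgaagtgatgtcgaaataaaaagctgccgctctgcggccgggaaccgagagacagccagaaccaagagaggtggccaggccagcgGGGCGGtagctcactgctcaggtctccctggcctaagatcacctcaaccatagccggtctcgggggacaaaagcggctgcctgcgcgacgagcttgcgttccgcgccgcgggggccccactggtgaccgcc
Gata2, second start: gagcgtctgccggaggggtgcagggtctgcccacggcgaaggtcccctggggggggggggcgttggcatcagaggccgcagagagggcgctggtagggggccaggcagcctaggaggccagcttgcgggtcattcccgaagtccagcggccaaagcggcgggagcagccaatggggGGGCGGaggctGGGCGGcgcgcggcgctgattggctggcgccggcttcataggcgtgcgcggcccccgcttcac
The letters GATA, read on both strands, were in neither window, nor in that of Zfpm1, whereas 53.6% of all 32851 windows held them. G and C made up 67.2% and 74% of the Gata2 windows and 73.2% of that of Zfpm1. The shares over all windows given here were not matched for this, and only 250 bases were searched. Whether GATA factors act on these genes was therefore not tested. The longer form, GATA with A or T before it and A or G after it, was in none of the 6 windows of the members and in 26.5% of all. GGGCGG was found once and 2 times in the Gata2 windows and 3 times in that of Zfpm1, and 32.7% of all windows held it at least once. Of the 6 windows, only that of Gata1 held the letters GATA, 132 bases before the start.

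Gata1, the master regulator of red cells and megakaryocytes, and Gata3, which directs T helper and innate lymphoid cells, were both dim. Gata1 was at 2.77 to 3.13 in CDAA and 2.82 to 3.15 in Std, a difference of -0.03 ± 0.11 (SE, limma adjusted p = 0.883). Gata3 was at 3.43 to 3.80 in CDAA and 3.47 to 3.66 in Std, a difference of 0.04 ± 0.09 (SE, limma adjusted p = 0.862). Neither separated the diets. The lineage genes around them were mostly dim as well: 10 of 11 measured erythroid genes and 6 of 11 T cell and innate lymphoid genes lay below the array median in both diets. Epor, the erythropoietin receptor, was the only erythroid gene above the array median (5.06 with CDAA and 6.16 with Std) and the only one that passed. It fell by 1.11 ± 0.15 (limma adjusted p = 0.000527), while the haemoglobin gene Hbb-bs was at 2.68 with CDAA and 2.58 with Std. Among T cell and innate lymphoid genes Il7r, the interleukin 7 receptor, rose by 2.65 and Icos, a T cell costimulator, fell by 0.92. The calls of Epor, Il7r and Icos held without CDAA 1 and CDAA 3, and without Std 5 a further T cell or innate lymphoid gene rose. List means were 3.21 to 3.27 in CDAA and 3.22 to 3.70 in Std for erythroid genes, and 3.71 to 4.22 in CDAA and 3.57 to 4.13 in Std for T cell and innate lymphoid genes.

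The FOG cofactors differed from each other. Zfpm1, first known as the partner of GATA1 in blood, had log2 signals of 7.16, 8.18, 7.05, 7.96 and 7.63 on CDAA 1 to 5, against 8.50, 8.27, 8.28, 8.45 and 8.71 on Std 1 to 5. Every CDAA array was lower than every Std array, with a gap of 0.096, and CDAA 3 and CDAA 1 were lowest. Zfpm1 fell by 0.85 ± 0.20 (SE, limma adjusted p = 0.0135), 1.80-fold in signal. Without CDAA 1 and CDAA 3 it fell by 0.52 (limma adjusted p = 0.0499).

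Zfpm2, which works with GATA4 in the developing heart and gonad, had log2 signals of 5.13, 5.77, 4.92, 5.81 and 5.56 on CDAA 1 to 5, against 5.66, 5.33, 5.27, 5.51 and 5.45 on Std 1 to 5. The CDAA values lay on both sides of the Std values, CDAA 1 and CDAA 3 below all of them and CDAA 2 and CDAA 4 above all. The difference was -0.01 ± 0.17 (SE, limma adjusted p = 0.988), and without CDAA 1 and CDAA 3 it was 0.27 (limma adjusted p = 0.189).

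**Figure D2:**
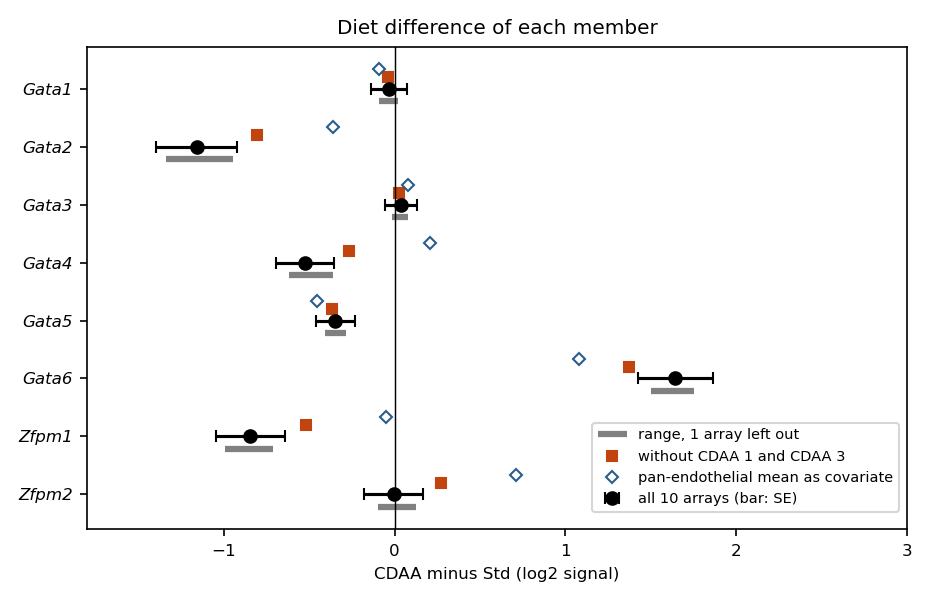
CDAA minus Std difference in log2 signal (x axis) of each member over all 10 arrays (black, bar: SE), without CDAA 1 and CDAA 3 (red squares) and with the array's pan-endothelial mean as a covariate (open diamonds), with the range when 1 array was left out in grey. Gata6 lies at 1.64, 1.37 and 1.08, and Zfpm1 at -0.85, -0.52 and -0.05.

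Because endothelial genes as a group were lower with CDAA, each brighter member was also set against the pan-endothelial mean within its own array. Probe sets differ in brightness, so only the change of such a difference between diets is read, and changes of dim probe sets can be understated. Gata4 minus that mean was -1.09, -1.20, -1.24, -1.28 and -1.22 on CDAA 1 to 5, against -1.54, -1.57, -1.43, -1.35 and -1.37 on Std 1 to 5. Relative to endothelial genes Gata4 was thus higher on every CDAA array, by 0.25, although its own signal was lower. Gata4's difference of -0.52 lay within the span of the 12 endothelial genes, -1.34 to -0.36, and those of Egfl7 (-0.36), Pecam1 (-0.47) and Tie1 (-0.51) were nearer to 0, so a place above the mean is not particular to Gata4. The two-sided exact permutation test gave p = 0.00794, the smallest it can give (adjusted p = 0.0132 over 10 such comparisons of 5 members with 2 lists). On this scale CDAA 3, the lowest array in Gata4 signal, lay among the other CDAA arrays, and CDAA 1, the next lowest, was the highest of them. The SD within CDAA was 0.072 (n = 5).

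Zfpm2 gained more on the pan-endothelial mean. Its difference from that mean averaged -5.35 ± 0.078 in CDAA and -6.11 ± 0.13 in Std (SD, n = 5 each), 0.77 higher with CDAA (exact permutation p = 0.00794, adjusted p = 0.0132). The signal of Zfpm2 itself differed by only -0.01, so its gains on this and the LSEC mean mirror the lower list means. Any gene with an unchanged signal would gain about as much. Against the mean of 18 LSEC genes, of which 15 fell, Zfpm2 was 0.98 higher with CDAA and Gata4 0.46 higher, without overlap and with the same p. Gata6 was 2.42 higher relative to the pan-endothelial mean and 2.63 higher relative to the LSEC mean, again with the same p. Gata6 by itself was higher, and both list means were lower, on every CDAA array than on any Std array. This p was therefore fixed beforehand and adds no support to the rise of Gata6. Zfpm1 changed by -0.07 relative to the pan-endothelial mean and by 0.14 relative to the LSEC mean (exact permutation p = 0.556 and 0.262). Gata2 changed by -0.39 and -0.17 (exact permutation p = 0.0714 and 0.429). When the pan-endothelial mean was a covariate in the limma fit, a model in which 0.753% of all genes were called, none of the 8 members passed: Gata6 was at 1.08 (adjusted p = 0.208), Gata2 at -0.36 (adjusted p = 0.695) and Zfpm1 at -0.05 (adjusted p = 0.955), while Gata4 changed sign to 0.21 (adjusted p = 0.620) and Zfpm2 to 0.71 (adjusted p = 0.0706). That covariate itself differed between the diets.

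**Figure D3:**
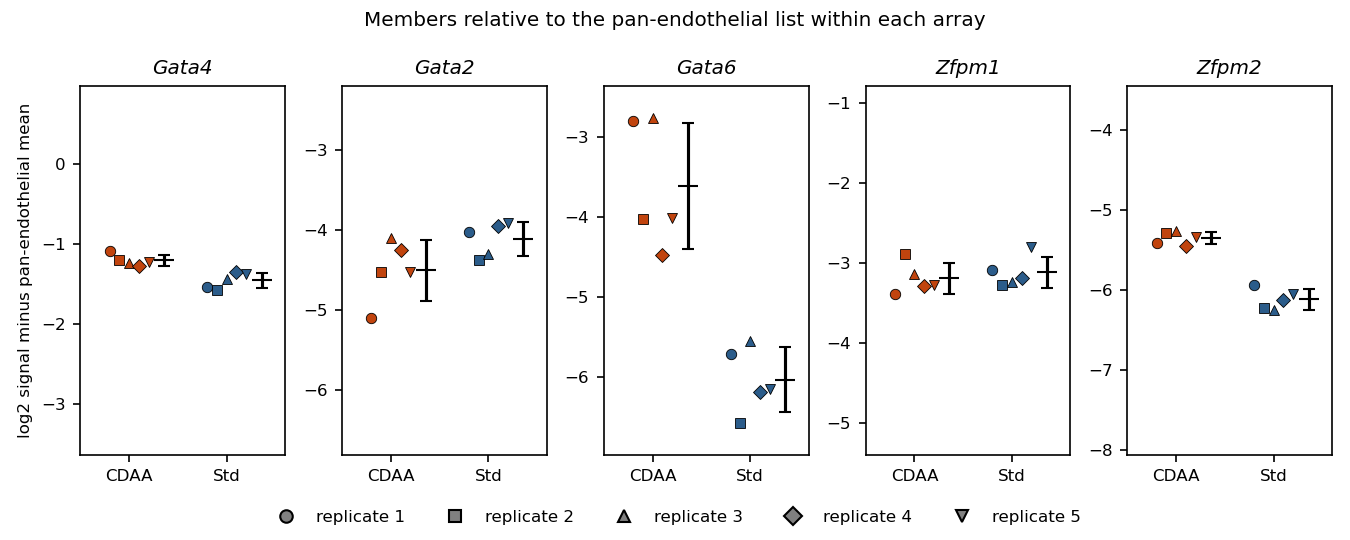
Log2 signal minus the mean of 12 pan-endothelial genes on the same array (y axis, own position but the same span of 4.6 units per panel) for the 5 members above the array median, with CDAA left and Std right, symbols for replicates and bars for mean and SD. Gata4, Gata6 and Zfpm2 are higher on all CDAA arrays, by 0.25, 2.42 and 0.77, and Gata2 and Zfpm1 overlap between the diets.

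Members were also compared with each other by their difference within each array, over 10 pairs. Gata6 minus Gata4 was -1.71, -2.83, -1.53, -3.20 and -2.80 on CDAA 1 to 5, against -4.17, -5.001, -4.11, -4.84 and -4.78 on Std 1 to 5. The diets did not overlap, and Gata6 gained 2.17 on Gata4 with CDAA (two-sided exact permutation p = 0.00794, adjusted p = 0.0113 over the pairs). Gata6 likewise gained 2.80 on Gata2, 2.49 on Zfpm1 and 1.65 on Zfpm2, and Zfpm2 gained 1.15 on Gata2, 0.84 on Zfpm1 and 0.52 on Gata4, each without overlap and with the same p. Gata6 by itself was higher, and Gata4, Gata2 and Zfpm1 by themselves were lower, on every CDAA array than on any Std array. For Gata6 against these members the lack of overlap and the p were therefore fixed beforehand and add no support. The gains of Zfpm2, whose own difference was -0.01, mirror the lower signals of Gata2, Zfpm1 and Gata4. Gata4 gained 0.64 on Gata2 (exact permutation p = 0.0159, adjusted p = 0.0198) and 0.32 on Zfpm1 (exact permutation p = 0.0397, adjusted p = 0.0441), with overlap in both cases. The last of these did not pass when any of 7 single arrays was left out, nor without CDAA 1 and CDAA 3 (0.25, exact permutation p = 0.125). For Zfpm1 minus Gata2 the change of 0.31 did not pass (exact permutation p = 0.111).

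Genes that act with these factors were called at shares not far from the 30.0% of all genes above the array median, except in a list of 6. Among 6 other genes with GATA-type zinc fingers, 3 fell: Gatad2a by 0.47 and Gatad2b by 0.36, which encode NuRD subunits, and the corepressor gene Rere by 0.35. None of them passed without CDAA 1 and CDAA 3, where they were at -0.37, -0.27 and -0.25, and Gatad2b and Rere each lost the call when any of 8 single arrays was left out (-0.43 to -0.31 and -0.41 to -0.28 over all 10 such fits). Of 15 corepressor genes that FOG proteins recruit or that belong to NuRD, all above the array median, 3 fell and 2 rose (33.3%), at a list median of 0.04 against -0.02 over all genes. The histone deacetylase gene Hdac1 fell by 0.64 ± 0.19 (SE), and the histone-binding subunit genes Rbbp4 and Rbbp7, the second named after its value was seen, rose by 0.47 and 0.46. Ctbp1 and Ctbp2, the CtBP genes, differed by -0.05 and -0.02. Without CDAA 1 and CDAA 3 only Rbbp7 passed in this list (0.45), and leaving out single arrays ended the call of Hdac1 6 times of 10 and that of Rbbp4 7 times.

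Of 15 partners of GATA factors in blood and vessels, 14 of them above the array median, 3 fell and none rose (20%). Tal1, which forms a complex with GATA1 or GATA2, fell by 0.58 ± 0.13 (SE, limma adjusted p = 0.00958), the endothelial ETS factor Erg by 0.66 ± 0.20 (limma adjusted p = 0.0447) and the coactivator Crebbp by 0.33 ± 0.10 (limma adjusted p = 0.0458). The other Tal1 complex genes Lmo2, Ldb1 and Lyl1 were at 0.03, -0.21 and -0.31, none past the threshold. Without CDAA 1 and CDAA 3 none of the 15 passed (Tal1 -0.43, Erg -0.35, Crebbp -0.33), and with single arrays left out Erg lost its call 7 times of 10 and Crebbp 8 times, while 1 gene rose without Std 3 and 2 without CDAA 4. Of 14 measured partners in heart, gut and liver, 10 of them above the array median, 3 rose and none fell (21.4%), with and without CDAA 1 and CDAA 3: the T-box factor Tbx20 by 1.53 ± 0.32 (limma adjusted p = 0.00692), the pioneer factor Foxa1 by 1.38 ± 0.12 (limma adjusted p = 4.19e-05) and the epithelial regulator Hnf4a by 0.83 ± 0.15 (limma adjusted p = 0.00353). Foxa1 and Hnf4a are active in hepatocytes and bile ducts or other epithelia, whose markers rose in part in the same isolates. Nr2f2, a nuclear receptor of venous endothelium that can bind FOG2, was at -0.32 (limma adjusted p = 0.0802).

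The list of LSEC markers had 15 falls and no rise among 18, at a median of -0.84, and 12 falls without CDAA 1 and CDAA 3. The C-type lectin gene Cd209b fell by 2.34 and the ficolin gene Fcna, which Kupffer cells also express, by 2.29, and the trafficking gene Ehd3 fell by 1.59. A list of 10 genes held markers of continuous capillaries together with Myc, a growth regulator, and Pdgfb, a growth factor for stellate cells, both described to rise in mouse liver endothelium that lacks Gata4. Of these 10, 4 rose and 2 fell. Myc rose by 1.92, the chemokine receptor Cxcr4 by 1.88 and the sialomucin gene Cd34 by 1.37. Pdgfb also rose, by 0.80, whereas Emcn and Ltbp4 fell by 0.73 and 0.96. Without CDAA 1 and CDAA 3, 5 of these genes rose and 1 fell (Emcn -0.31, not past the threshold), and with any of 7 single arrays left out 1 fell. These lists were drawn up with results of these arrays known, so they are not independent evidence of a direction.

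**Figure D4:**
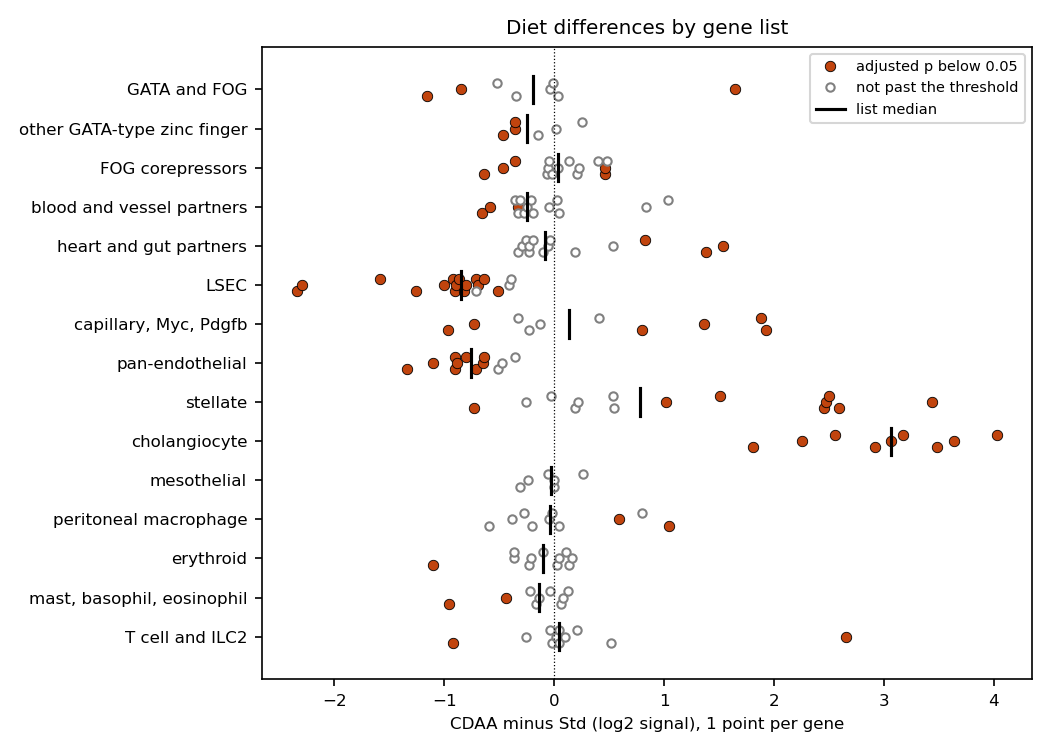
CDAA minus Std difference in log2 signal (x axis) of each measured gene, by list (rows), with filled points for genes past an adjusted p of 0.05, open points for the others and a black bar for the list median. In the top row Gata6 lies at 1.64, Zfpm1 at -0.85 and Gata2 at -1.16, and the medians of the LSEC and pan-endothelial lists lie at -0.84 and -0.76.

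Profiles most like those of Gata4 and Gata6 were sought among 11349 other genes above the array median, by the root mean square distance between profiles centred on each gene's mean over the 10 arrays. The 5 nearest to Gata4 were Adgrl2, an adhesion receptor, Cdc42bpa, a kinase, Ccdc186, Sox17, a transcription factor of arterial endothelium, and Mtmr12. Their distances were 0.064 to 0.077 log2 units, against an SD of 0.37 for Gata4 itself. Their differences were -0.60 to -0.49, and Sox17 fell by 0.60 ± 0.17 (SE, limma adjusted p = 0.0339), but not without CDAA 1 and CDAA 3 (-0.35, limma adjusted p = 0.104) nor without any of 5 single arrays. Cdc42bpa, Ccdc186 and Mtmr12 fell as well (limma adjusted p = 0.0364, 0.041 and 0.0485). They lost the call when any of 7, 8 and 8 single arrays was left out. Adgrl2 did not pass (limma adjusted p = 0.057). The 5 nearest to Gata6 were the laminin receptor subunit Itga3, the membrane-bound transcription factor Myrf, the epithelial membrane protein Emp2, Eps8l2, an actin regulator, and Tmc4. Their distances were 0.17 to 0.20, against an SD of 0.90 for Gata6, and all 5 rose, by 1.52 to 1.81. The distance runs over the arrays of both diets, so a like difference between the diets is part of what it measures.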

How the data were processed

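The deposited values are log2 signals that the authors summarised by RMA (robust multi-array average), per the submitters' processing notes. RMA subtracts background, gives all arrays 1 distribution and summarises the probes of a probe set. CDAA 1 holds 24921 distinct values and the other arrays at most 10080, and at equal rank CDAA 1 differs from CDAA 2 by at most 0.00186 log2 units. The version of RMA, the array design and dates are not given in the sources used here, and no batch was modelled. Of 25428 probe sets, 24705 had 1 gene symbol, 0 several and 723 none. For the 1 gene with several, the probe set of highest mean was kept.

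Diets were compared with limma 3.58.1 in R 4.3.3 (lmFit, eBayes, two-sided), which was tested on simulated data. Within-array differences were compared with exact permutation tests in Python 3.11.15. The number of arrays limits the precision. The p-values take the pools of mice as units and set the diet difference against the spread between them.

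The members, the 21 other lists (229 entries, 16 of them unmatched) and the rules were chosen with earlier results of these data known. Named were all members, the 3 called genes of each list that changed most (the gene of smallest p where none was called) and the 5 nearest profiles to Gata4 and Gata6. Other genes named (Rbbp7, Hhip, Ctbp1, Ctbp2, Lmo2, Ldb1, Lyl1, Nr2f2, Pdgfb, Emcn, Ltbp4, Prg4, Selp, Msln, Lrrn4, Hbb-bs, Egfl7, Pecam1, Tie1, Ass1, Cyp2e1, Clec4f and Vsig4) were chosen after their values were seen. Other settings were the replicate number as a block, repeated quantile normalization, equal array medians, leaving out dim genes, array weights, robust variance with an intensity trend, the pan-endothelial covariate, leaving out CDAA 1 and CDAA 3, and leaving out each array.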

Additional observations from a re-analysis of the deposited data

Results flagged for a closer look

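No array stood far from the others of its diet for any member. Among the means of the 21 other lists, 5 did, of 58 groups of 5 arrays examined in all. The criterion was Dixon's: the distance from the outermost array to the next one had to exceed 0.71 of the whole range within a diet, which chance alone gives in about 1 group in 20.

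Std 3 accounted for 3 of them. Its neutrophil list mean was 8.584 log2 units, against 3.564 to 3.815 on the other Std arrays. Its recruited macrophage list mean was 6.259, against 5.219 to 5.428, and its mast cell, basophil and eosinophil list mean was 4.535, against 4.12 to 4.176. The T cell and innate lymphoid list mean was 4.13 in Std 5, against 3.57 to 3.73 on the other Std arrays, and the mesothelial list mean was 4.626 in CDAA 5, against 4.994 to 5.13 on the other CDAA arrays. The part of these signals in the members' values was not tested. Gata6 in Std 3 (5.96) was the highest of the Std arrays, and without Std 3 its rise was 1.755.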

How the results depend on the processing

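The rise of Gata6 and the falls of Gata2 and Zfpm1 passed under every setting but the pan-endothelial covariate, where they were at 1.08, -0.36 and -0.047. With that covariate the call count fell to 186 genes (131 risen, 55 fallen) against 4106, and without CDAA 1 and CDAA 3 it was 2612, with 1307 fallen. Leaving out 1 array gave 2956 to 4572. Gata4 did not pass in the main comparison but did, at -0.52, with the replicate block (adjusted p = 0.0429), with the dimmest 25% or genes under the median dropped (adjusted p = 0.0467 and 0.0367) and with an intensity trend (adjusted p = 0.0415). It lay between -0.62 and -0.36 with 1 array left out, passing without CDAA 2 or CDAA 4, and at 0.21 with the covariate. Gata5 passed with array weights (-0.43), and lay between -0.41 and -0.28 with 1 array left out, passing without CDAA 5 or Std 3. Zfpm2 changed sign with array weights (0.089), with the covariate (0.71) and without CDAA 1 and CDAA 3 (0.27), and ran from -0.098 to 0.12 with 1 array left out. Gata1 changed sign with array weights (0.016) and ran from -0.089 to 0.018, and Gata3 from -0.014 to 0.077. None of these passed. Relative to the pan-endothelial mean, Gata2 ran from -0.49 to -0.24 and passed without CDAA 3 or Std 2, and Zfpm1 ran from -0.15 to 0.0059. Gata4 minus Zfpm1 ran from 0.25 to 0.40, passing on 3 of 10 occasions, and was 0.25 without CDAA 1 and CDAA 3. The remaining within-array comparisons kept their side of 0.05. With the covariate, Erg (0.20), F10 (-0.14), Adgrl2 (0.20), Cdc42bpa (0.11), Ccdc186 (0.11), Sox17 (0.14) and Mtmr12 (0.18) also changed sign without passing. The causes were not tested.

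Deviations of same-numbered CDAA and Std arrays correlated at 0.0164 to 0.249 across genes, and those of arrays with different numbers at -0.175 to 0.173. Of each diet, 3 of 5 arrays correlated best with their own number. The labels do not say whether the numbers pair the pools, so a pairing is neither shown nor excluded, and the main comparison did not pair them. With the replicate block 4178 genes were called. Array medians set equal and repeated quantile normalization changed no call of a member. Signals below the array median limit what can be read for Gata1, Gata3 and Gata5.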

Other observations

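Lists that touch the family less directly also held changes. Prox1, the regulator of lymphatic identity that hepatocytes and bile duct cells express too, rose by 1.91 ± 0.23 (SE, limma adjusted p = 0.000244), and Pdpn, podoplanin, rose by 0.98, the 2 calls among 5 measured lymphatic genes. Of 10 hepatocyte genes 4 rose, led by Fabp1 (1.78), Ttr (1.54) and Alb (1.28), and Ass1 and Cyp2e1, named after their values were seen, fell by 1.18 and 1.13. Among 10 Kupffer cell genes Timd4, a receptor for dying cells, fell by 3.73 and the scavenger receptor Marco by 1.88, Clec4f and Vsig4, named likewise, both fell by 1.14, and Cd68 rose by 1.38, while without CDAA 4 there were 4 rises in that list. Of 4 measured B and plasma cell genes, Jchain and Ighm rose by 2.19 and 1.13. Without CDAA 1 and CDAA 3 Ighm did not pass (0.73, limma adjusted p = 0.0804), whereas the other calls named here held. None of 7 measured megakaryocyte genes passed, the lowest p being that of Ppbp (-0.87, limma adjusted p = 0.0608), though Ppbp did without CDAA 4 (-0.98) or Std 5 (-1.02). None of 8 neutrophil genes passed, where S100a9 was at 7.20 with CDAA and 5.71 with Std (limma adjusted p = 0.313). Without Std 3, the array high in neutrophil genes, 5 of the 8 rose, and S100a9 rose by 2.56 (limma adjusted p = 6.21e-05).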
